A study of Mus musculus with 4 samples.

Results

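Primitive erythroid cells, the first red blood cells of the mouse embryo, were chosen by measured UMI counts in single-cell RNA sequencing of embryonic day 8.5 (E8.5) mouse embryos: a cell was a member when it held at least 3000 genes, at least 7500 unique molecular identifiers (UMIs, each marking 1 captured transcript) and at most 7% mitochondrial UMIs, together with at least 1 UMI of *Gata1*, at least 1 of *Klf1* and at least 20 of *Hbb-bh1*. The rule selected 238 cells of the 20198 that passed the same quality limits, out of 24239 cells in the 4 libraries. The tissue was the caudal part of the embryo from intercrosses of *Grhl3*+/- mice on a C57BL/6 background, and the groups were WT embryos and *Grhl3*-null embryos, with no other allele or treatment named in the labels. Cells of 5 WT embryos formed 1 pool and cells of 3 *Grhl3*-null embryos formed another, and each pool was run in 2 droplet reactions. A difference between WT and *Grhl3*-null libraries is therefore a difference between 2 pools, and the spread between the 2 reactions of a pool holds no difference between embryos. WT 1 gave 64 member cells, WT 2 gave 48, *Grhl3*-null 1 gave 60 and *Grhl3*-null 2 gave 66.

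Primitive erythroid cells arise in the blood islands of the yolk sac and enter the embryo when the circulation begins, while they are still nucleated and dividing. Gata1 and Klf1 are the transcription factors that switch on the red cell programme, which is made of the globin chains, the enzymes that build haem, the iron transporters and the proteins of the red cell membrane. In these cells the embryonic globins zeta (*Hba-x*), beta-H1 (*Hbb-bh1*) and epsilon-y (*Hbb-y*) predominate, and during maturation epsilon-y overtakes beta-H1 and the alpha globins (*Hba-a1* and *Hba-a2*) overtake zeta.

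The targeted gene was measured first. Over all filtered cells, *Grhl3* had 878 UMIs in WT 1, 803 in WT 2, 12 in *Grhl3*-null 1 and 14 in *Grhl3*-null 2. In the erythroid cells themselves *Grhl3*, a transcription factor of surface ectoderm, was close to undetected in every library, with 4 UMIs in WT 1, 1 in WT 2 and 0 in either *Grhl3*-null library. A count of 0 allows up to 1.02 counts-per-million (CPM) in *Grhl3*-null 1 and 0.971 CPM in *Grhl3*-null 2, so that no genotype difference in *Grhl3* was detectable in these cells at this depth.

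The rule had a wide margin. The lowest *Hbb-bh1* value of any member was 600 UMIs in WT 1, 446 in WT 2, 451 in *Grhl3*-null 1 and 538 in *Grhl3*-null 2, far above the limit of 20. Outside the members, the highest *Hbb-bh1* value below the limit was 6 UMIs, apart from 10 cells that carried between 181 and 1808 *Hbb-bh1* UMIs but no *Gata1* UMI. Of these 10 cells, 6 were in WT 1, 2 in WT 2 and 2 in *Grhl3*-null 2, and 2 of them also lacked *Klf1*. The *Gata1* term was the narrow part of the rule: members held a median of 3 *Gata1* UMIs in either WT library and 5 and 4.5 in the *Grhl3*-null libraries, with a lowest value of 1 in all 4. *Klf1* was higher, with medians of 9.5, 8, 9 and 9.5 UMIs in the same order. A further 10 cells met the 3 gene terms but failed the quality limits. Each pair of libraries shared between 7 and 16 cell barcodes, and 0 member barcodes were found in a second library.

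**Figure D1:**
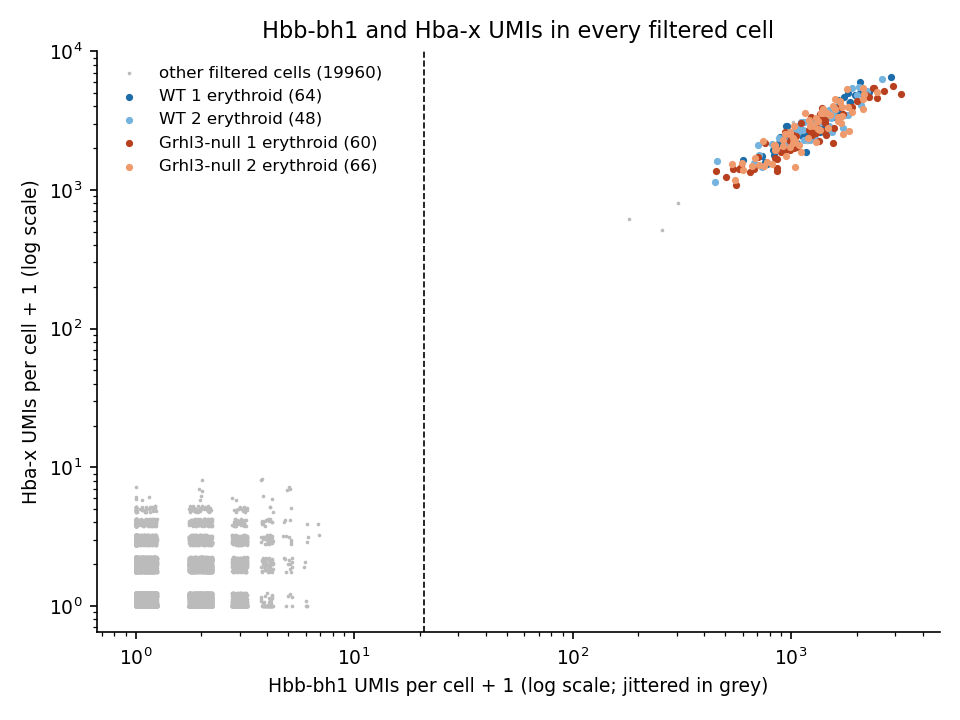
UMIs of *Hbb-bh1* (x axis) and *Hba-x* (y axis) in every filtered cell, 1 added to both and both axes logarithmic; coloured points are the 238 erythroid cells by library, grey points are the 19960 other filtered cells, and the dashed line is the limit of 20 *Hbb-bh1* UMIs. The erythroid cells form 1 group that starts at 446 *Hbb-bh1* UMIs, and all but 10 of the grey cells lie at 6 or fewer.

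*Hba-x*, which the rule did not use, marked the members and also the 10 *Hbb-bh1*-rich cells without *Gata1*: 70, 50, 60 and 68 cells of WT 1, WT 2, *Grhl3*-null 1 and *Grhl3*-null 2 held at least 20 UMIs of both globins. Its median was 2902.5 UMIs per member cell in WT 1, 3029 in WT 2, 2585 in *Grhl3*-null 1 and 2718.5 in *Grhl3*-null 2, and its lowest value in any member was 1077. The member cells were deep, with a median of 41205.5 UMIs in WT 1, 36345.5 in WT 2, 47071 in *Grhl3*-null 1 and 44293 in *Grhl3*-null 2. They held fewer different genes than the other cells of their libraries in spite of more UMIs. Their median was 4792.5, 4614, 5198.5 and 5020 genes, against 5733, 5818.5, 6071.5 and 5932 genes in the other filtered cells, whose median UMI count was 33319 to 37877. The 10 globin genes made up 17.2% and 19.8% of all member UMIs in the WT libraries and 13.2% and 13.9% in the *Grhl3*-null libraries, and at most 0.00327% of the UMIs of the median other cell.

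Markers of most other cell types that a barcode could hold were low. All 14 genes of the myeloid list were under 1 CPM, 11 of them, among them the leukocyte antigen *Ptprc* and the macrophage receptor *Csf1r*, were at 0 in every library, and the whole list summed to 1.46 ± 0.565 CPM (SD, n = 4 libraries). In the megakaryocyte list 6 of 14 genes, among them *Pf4*, were at 0, and *Rap1b*, a gene that most cells express, carried 166 of the list's 234 CPM, against 178 CPM for the list in the other cells. The remainder was mainly *F2r*, a thrombin receptor, at 45.6 ± 4.68 CPM (45.1 CPM in the other cells) and *Itga2b*, the integrin CD41 of platelets and early blood progenitors, at 19.2 ± 2.84 CPM (0.847 CPM in the other cells), and 4 of the 14 genes lay above the other cells in all 4 libraries. The haematoendothelial list summed to 120 CPM in WT 1, 62.1 in WT 2, 91.4 in *Grhl3*-null 1 and 86.4 in *Grhl3*-null 2, against 3330 CPM in endothelial cells of the same libraries. Most of it was *Egfl7* (49.7 ± 8.99 CPM) and *Runx1* (19.98 ± 3.16 CPM), whereas the endothelial junction gene *Cdh5* had 2.05 CPM in WT 1 and at most 0.340 CPM in the other 3 libraries. Mesenchymal genes were uneven across libraries. Their list summed to 44.7 CPM in WT 1, 7.49 in WT 2, 15.0 in *Grhl3*-null 1 and 66.0 in *Grhl3*-null 2, with *Foxf1* the most abundant at 8.51 CPM, and to 302 ± 37.6 CPM in the other cells. Genes of paraxial mesoderm, neural and neuromesodermal cells, epithelium and gut endoderm each summed to a mean between 25.7 and 38.6 CPM, and secreted products of visceral endoderm to 6.76 CPM, all under the level in the other cells. Some of these were uneven as well. Epithelium was at 53.3 and 9.63 CPM in WT 1 and WT 2 and at 29.9 and 41.1 CPM in *Grhl3*-null 1 and 2. In the same order the neural and neuromesodermal list was at 39.3, 16.1, 58.1 and 40.8 CPM, and visceral endoderm at 2.05, 1.61, 15.6 and 7.76 CPM. The most abundant gene of the neural and neuromesodermal list was *T*, at 18.0 CPM. Since the rule acted on these same cells, these values describe the members and were not tested against the rest.

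The genes with the highest ratio of member to other-cell level were led by the globins. The 20 leading genes, ranked on CPM with 5 CPM added to both levels, began with *Hba-x*, *Hbb-bh1*, *Hbb-y*, *Hba-a1*, *Hba-a2* and *Hbb-bs*. Among the others were *Blvrb* (biliverdin reductase B), *Cited4*, *Slc4a1* (the band 3 anion exchanger), *Alas2* (the erythroid enzyme for the entry step of haem synthesis), *Hbb-bt*, *Smim1* (the Vel blood group protein), *Car2* (carbonic anhydrase 2), *Mgst3*, *Klf1*, *Hebp1* (a haem-binding protein), *Hemgn* (haemogen) and *Mrap*. Because each UMI marks 1 transcript end whatever its length, CPM values can be set side by side between genes. *Hba-x* reached 66534 ± 9550 CPM (SD, n = 4 libraries) in members and 37.1 CPM in the other cells. *Cited4*, a transcriptional cofactor, was at 505 ± 58.3 against 1.53 CPM. Globin levels in the other cells differed between libraries. *Hba-x* in the other cells was 74.8 CPM in WT 1, 37.9 in WT 2, 10.4 in *Grhl3*-null 1 and 25.3 in *Grhl3*-null 2, and the 10 *Hbb-bh1*-rich cells without *Gata1* alone held 82.7% of the globin UMIs of the other cells in WT 1, 70.8% in WT 2, 0% in *Grhl3*-null 1 and 42.2% in *Grhl3*-null 2.

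**Figure D2:**
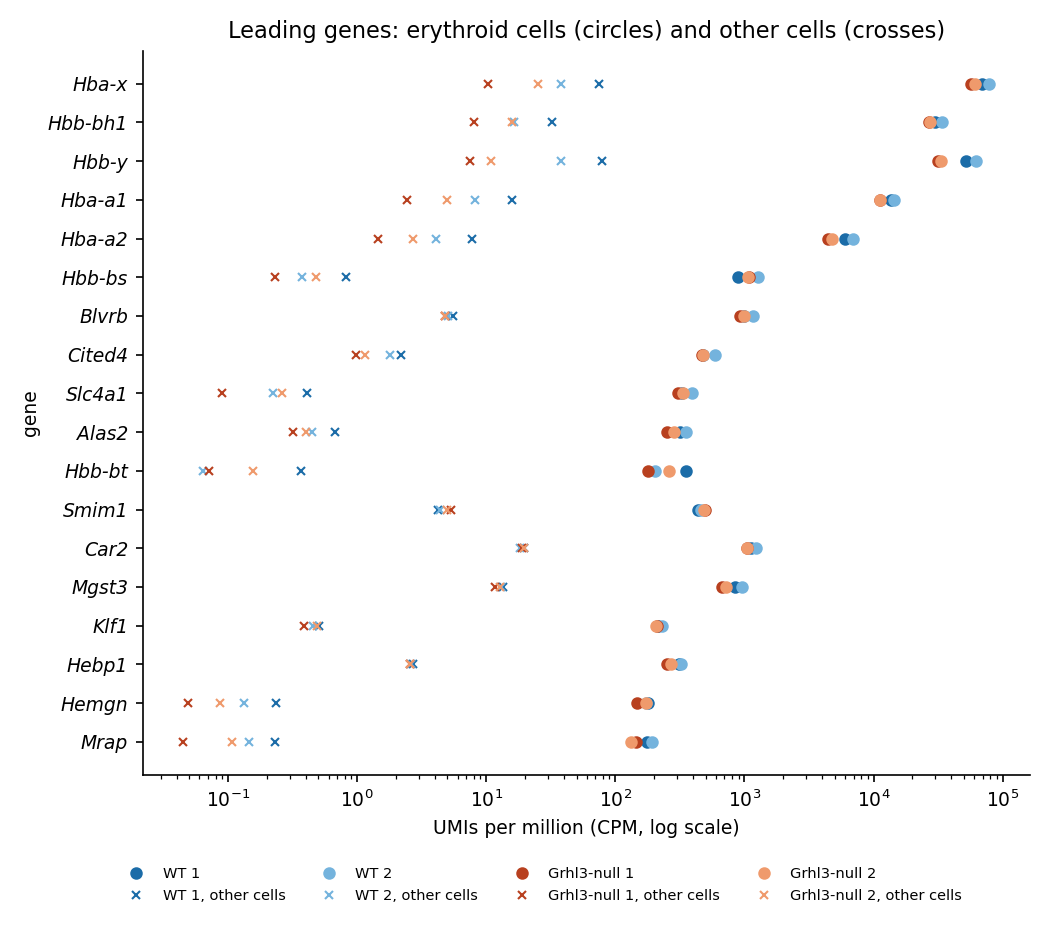
Level of 18 of the 20 leading genes in counts-per-million (x axis, logarithmic), 1 row per gene; circles are the erythroid cells and crosses the other filtered cells, coloured by library. Every circle lies to the right of every cross of its gene.

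Promoters of 4 of these genes are shown because they belong to the genes that the later results turn on. They are a globin that leads the list (*Hba-x*) and the globin that differed between genotypes (*Hbb-y*). The others are a haem enzyme that followed the share of globin UMIs (*Alas2*) and a regulator used by the rule (*Klf1*). Each promoter runs 5′ to 3′ from 250 bases before to 50 bases after the gene start in RefSeq (build GRCm38.p6). Capitals mark, on either strand, AGATAA or TGATAA (the core that GATA factors recognise) and CCNCNCCC (a core of the CACCC type recognised by Klf factors). *Hba-x* lies at chr11:32276350-32276649 on the plus strand, *Hbb-y* at chr7:103853158-103853457 on the minus strand, *Alas2* at chrX:150547167-150547466 on the plus strand and *Klf1* at chr8:84901732-84902031 on the plus strand.
Hba-x: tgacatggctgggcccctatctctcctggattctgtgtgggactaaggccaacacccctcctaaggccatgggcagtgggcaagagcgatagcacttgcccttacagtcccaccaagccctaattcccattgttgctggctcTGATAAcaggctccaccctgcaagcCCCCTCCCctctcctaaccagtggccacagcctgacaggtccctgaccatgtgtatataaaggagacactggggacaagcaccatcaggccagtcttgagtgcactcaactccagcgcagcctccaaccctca
Hbb-y: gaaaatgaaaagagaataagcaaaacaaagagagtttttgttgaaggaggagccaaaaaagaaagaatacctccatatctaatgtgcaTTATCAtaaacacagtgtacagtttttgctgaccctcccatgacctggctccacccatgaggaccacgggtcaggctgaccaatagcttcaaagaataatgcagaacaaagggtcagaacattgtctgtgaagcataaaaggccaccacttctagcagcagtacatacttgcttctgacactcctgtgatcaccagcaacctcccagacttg
Alas2: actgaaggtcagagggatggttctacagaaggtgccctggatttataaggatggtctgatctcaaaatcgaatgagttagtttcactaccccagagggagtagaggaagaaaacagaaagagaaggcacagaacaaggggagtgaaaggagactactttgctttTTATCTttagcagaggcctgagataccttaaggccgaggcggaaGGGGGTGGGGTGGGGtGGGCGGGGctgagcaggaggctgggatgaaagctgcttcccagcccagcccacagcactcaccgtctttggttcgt
Klf1: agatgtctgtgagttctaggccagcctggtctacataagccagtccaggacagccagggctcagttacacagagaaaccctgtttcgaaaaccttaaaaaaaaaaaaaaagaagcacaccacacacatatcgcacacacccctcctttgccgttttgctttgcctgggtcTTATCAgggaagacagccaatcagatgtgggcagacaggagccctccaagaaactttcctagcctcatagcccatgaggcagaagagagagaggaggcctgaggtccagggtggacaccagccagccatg
Each of these promoters held 1 AGATAA or TGATAA match, while CCNCNCCC was found at 1 position in *Hba-x*, at 4 positions, some of them overlapping, in *Alas2* and at 0 in *Hbb-y* and *Klf1*. Of the 20 leading genes, 14 had a promoter in the table, that of *Klf1* included, and 8 of these 14 (57.1%) held AGATAA or TGATAA against 18.95% of the 27025 promoters of all genes. Most of these matches were in globins, *Hba-x*, *Hbb-y*, *Hba-a1*, *Hba-a2* and *Hbb-bs*, and the rest in *Alas2*, *Klf1* and *Hemgn*. CCNCNCCC was in 10 of the 14 (71.4%) against 49.1% of all promoters, in 11 of 12 promoters of haem synthesis genes (91.7%) and in 3 of 9 of globins (33.3%). AGATAA or TGATAA was in 6 of 9 globin promoters (66.7%) and in 2 of 12 of haem synthesis genes (16.7%). A match is a description of the letters in this window.

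The lists of red cell functions described the same programme. In the haem synthesis list 13 of 14 genes were above the other cells in all 4 libraries, and the list summed to 5940 ± 477 CPM in members against 463 ± 19.4 CPM in the other cells. *Tmem14c*, a mitochondrial protein needed for porphyrin transport, was the most abundant at 2166 ± 174 CPM, and *Cpox*, an enzyme of porphyrin assembly, stood at 878 ± 69.7 CPM. The exception was *Alas1*, the form of the entry enzyme used outside red cells, at 3.25 CPM in members and 11.7 CPM in the other cells, where *Alas2* stood at 301 ± 42.0 and 0.462 CPM.

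Iron supply genes were also high. The ferritin chains *Fth1* and *Ftl1* reached 6335 ± 384 and 2959 ± 129 CPM, *Glrx5* (iron-sulfur cluster assembly) 1141 ± 72.9 CPM, the mitochondrial iron importer *Slc25a37* 578 ± 53.0 CPM and the transferrin receptor *Tfrc* 236 ± 20.7 CPM. *Slc40a1*, the iron exporter ferroportin, stood at 3.52 CPM, close to the 3.20 CPM of the other cells.

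Of 22 genes of the red cell membrane and its skeleton, 18 were above the other cells in all 4 libraries. The beta spectrin *Sptb* stood at 124 ± 9.77 CPM, *Ank1*, which ties spectrin to band 3, at 85.0 ± 7.63 CPM and the Rh-associated glycoprotein *Rhag* at 46.5 ± 6.59 CPM. The water channel *Aqp1*, abundant in adult red cells, had 0 UMIs in every library, a count that allows at most 1.61 CPM in the shallowest of the 4 member sums. The glucose transporter *Slc2a1* (247 CPM) and *Cd24a* (170 CPM) were below the other cells (373 and 340 CPM).

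Regulators other than those of the rule were led by *Zfpm1*, the cofactor of Gata1, at 142 ± 8.68 CPM, *Tal1* at 125 ± 8.60 CPM and *Lmo2* at 120 ± 11.5 CPM, partners in the erythroid transcription complex. *Gfi1b* stood at 55.0 ± 8.36 CPM and *Nfe2* at 38.2 ± 4.81 CPM. *Bcl11a*, which silences embryonic globins in later red cells, was at 0 in every library, *Sox6* at 1.15 CPM and *Myb* at 1.54 CPM. *Runx1*, *Zbtb7a* and *Ikzf1*, which also act in definitive blood cells, had a UMI in 52.5%, 50.8% and 79.8% of members. These shares are not corrected for background UMIs. The receptor of erythropoietin, *Epor*, was at 115 ± 8.48 CPM, and the stem cell factor receptor *Kit* was low at 3.53 ± 1.70 CPM. Among cyclins, *Ccnd3* (347 ± 54.4 CPM) was above the other cells (116 CPM), whereas *Ccnd1* and *Ccnd2* were at 27.9 and 70.7 CPM against 286 and 636 CPM. Genes of S phase summed to 2662 ± 118 CPM in members and 3226 ± 22.7 CPM in the other cells, and glycolysis genes to 6953 ± 713 against 13137 ± 258 CPM.

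The member cells differed widely in their haemoglobin share, the part of a cell's UMIs that came from the 10 globin genes. It is a share of transcripts, and no protein was measured. The haemoglobin share of a cell's UMIs ran from 2.74% to 35.8% in WT 1, from 8.05% to 37.8% in WT 2, from 2.78% to 27.1% in *Grhl3*-null 1 and from 2.48% to 31.0% in *Grhl3*-null 2. To describe what changed along this range, every other gene was expressed as a share of the UMIs outside the globins and ranked by its Spearman correlation with the haemoglobin share over the cells of each library, averaged over the 4 libraries, for the 4751 genes detected in 50% or more of the members. The correlations are descriptions over 48 to 66 cells that share a library. The median over all 4751 genes was -0.056, and 90% of them lay between -0.27 and 0.23 (5th and 95th percentiles).

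Most genes of haem synthesis and of the membrane were at higher levels in haemoglobin-rich cells. Among the 10 highest were *Mgst3* (mean rho 0.82), *Tmem14c* (0.77), *Slc4a1* (0.74), *Alas2* (0.73), *Gpx1* (0.71), *Prdx2* (0.71), *Car2* (0.69) and *Blvrb* (0.64). *Mgst3* encodes a microsomal glutathione transferase, and *Gpx1* and *Prdx2* encode peroxidases of the red cell cytoplasm. Between the haemoglobin-poor and haemoglobin-rich 50% of the cells, *Slc4a1* went from 278 ± 66.0 to 570 ± 65.5 CPM outside globins (SD, n = 4 libraries), a ratio of 2.05, and *Alas2* from 258 ± 71.0 to 493 ± 77.7 CPM, a ratio of 1.91. By list, the median rho was 0.55 over 13 haem synthesis genes, of which 12 were positive in all 4 libraries, 0.39 over 11 globin chaperone and redox genes, of which 6 were positive in all 4, and 0.29 over 21 membrane and skeleton genes, of which 18 were positive in all 4. The median over 14 regulators was 0.19, a list that includes *Klf1* and *Gata1*, whose levels the rule conditioned on, and that over 12 iron handling genes was 0.12.

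Other genes were at lower levels in haemoglobin-rich cells. The 10 lowest were *Actg1* (mean rho -0.67), *Ptma* (-0.62), *Pgam1* (-0.61), *Sumo2* (-0.60), *Npm1* (-0.58), *Mif* (-0.56), *Tmsb10* (-0.55), *Hsp90ab1* (-0.54), *Slc25a4* (-0.54) and *Dut* (-0.53). *Actg1*, cytoplasmic gamma-actin, went from 1231 ± 254 CPM in haemoglobin-poor to 501 ± 130 CPM in haemoglobin-rich cells, a ratio of 0.407, and *Tmsb10*, an actin-binding thymosin, from 369 ± 139 to 127 ± 41.3 CPM, a ratio of 0.345. *Pgam1*, a glycolytic enzyme, had a ratio of 0.511, and 10 of 11 glycolysis genes were negative in all 4 libraries with a median rho of -0.33. S phase genes had a median rho of -0.11 over 16 genes and genes of G2 and M phase one of -0.00085. UMIs outside globins were also fewer where the haemoglobin share was higher, with a rho of -0.49, -0.54, -0.19 and -0.47 in WT 1, WT 2, *Grhl3*-null 1 and *Grhl3*-null 2, and so was the number of genes detected (-0.53, -0.59, -0.30 and -0.55). UMIs outside globins are part of the total that the haemoglobin share is divided by, so a negative rho is partly built in. For all UMIs of the cell the rho was -0.22, -0.20, 0.048 and -0.21. The part of sampling depth in the gene correlations was not tested.

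**Figure D3:**
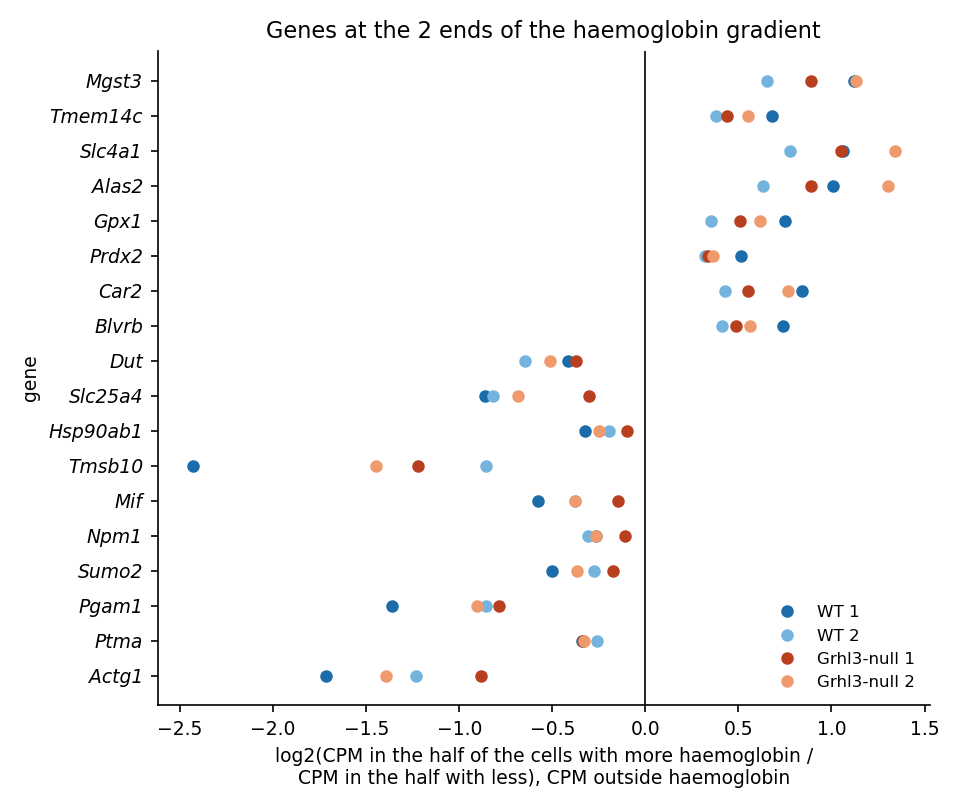
For 8 of the 10 genes with the highest and for the 10 with the lowest rank correlation with haemoglobin share, the log2 ratio of the level in the haemoglobin-rich to that in the haemoglobin-poor 50% of the erythroid cells (x axis, counts-per-million outside the globins), 1 point per library. All 4 libraries lie above 0 for each of the 8 upper genes and below 0 for each of the 10 lower genes, with *Actg1* and *Tmsb10* farthest below.

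The make-up of the globin UMIs changed along the same range. Each globin is itself part of the haemoglobin share that ordered the cells, *Hbb-y* at 23.7% to 31.4% of haemoglobin UMIs. Part of a change in make-up can therefore come from the ordering. *Hbb-y* made up 50.2% of the UMIs of the beta-like globins in the haemoglobin-poor cells of WT 1 and 68.3% in its haemoglobin-rich cells. In WT 2 this share went from 52.9% to 69.6%, in *Grhl3*-null 1 from 33.3% to 59.4% and in *Grhl3*-null 2 from 28.0% to 63.3%. Epsilon-y was thus the minor beta-like globin in the haemoglobin-poor cells of the *Grhl3*-null libraries and the major one in the haemoglobin-rich cells of all 4 libraries. The adult-type alpha globins *Hba-a1* and *Hba-a2* together went from 19.8% to 23.7% of the alpha-like UMIs in WT 1, from 19.2% to 22.8% in WT 2, from 19.3% to 22.6% in *Grhl3*-null 1 and from 18.1% to 22.4% in *Grhl3*-null 2. The adult beta globins *Hbb-bs* and *Hbb-bt* went from 2.11% to 1.20% of the beta-like UMIs in WT 1, from 1.89% to 1.31% in WT 2, from 3.75% to 1.54% in *Grhl3*-null 1 and from 3.62% to 1.59% in *Grhl3*-null 2. Over single cells the rank correlation of this share with the haemoglobin share was weak and not of 1 sign, at -0.038, 0.14, -0.21 and -0.17. Transcripts of *Hba-a1* and *Hba-a2* are 99.8% identical, and those of *Hbb-bs* and *Hbb-bt* are identical over 291 aligned bases, so the split within each pair is uncertain while the sums do not depend on it.

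Under the member rule the share of erythroid cells was slightly higher in the *Grhl3*-null libraries. Members made up 1.17% of filtered cells in WT 1 (95% Clopper-Pearson interval 0.904 to 1.49%), 0.938% in WT 2 (0.693 to 1.24%), 1.24% in *Grhl3*-null 1 (0.947 to 1.59%) and 1.38% in *Grhl3*-null 2 (1.07 to 1.75%), the intervals covering counting error only. The interval of each WT library overlapped those of both *Grhl3*-null libraries. The *Grhl3*-null mean of 1.31% ± 0.0999 (SD, n = 2) stood above the WT mean of 1.06% ± 0.166 (n = 2), and an exact two-sided permutation test gave p = 0.333, the smallest p that 2 libraries against 2 allow. The log2 ratio of 0.31 was 0.16 without WT 2, 0.48 without WT 1 and 0.11 with a mitochondrial limit of 5%. With that limit the groups overlapped, at 1.18% and 0.925% in the WT libraries against 1.02% and 1.26% in the *Grhl3*-null libraries. A rule of at least 20 UMIs of both *Hbb-bh1* and *Hba-x*, without the *Gata1* and *Klf1* terms, also gave overlapping groups. Its shares were 1.28% and 0.977% against 1.24% and 1.42%, a log2 ratio of 0.24. The sex of the cells was called from *Xist* and 4 Y-linked genes, and the pools differed in it. Of the sexed cells outside the members 26.5% and 26.9% were male in the WT libraries against 55.8% and 57.7% in the *Grhl3*-null libraries, and of the sexed members 30.2% and 37.2% against 39.7% and 42.1%, so that pooled values mix the sexes in different proportions. The share differed in opposite directions by sex. Among male cells the share was 1.27% and 1.33% in the WT libraries and 1.01% and 1.04% in the *Grhl3*-null libraries, and among female cells 1.06% and 0.827% against 1.92% and 1.94%. Male and female cells of a pool come from different embryos, and sex, embryo and stage cannot be told apart here.

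The haemoglobin share of the cells was lower in the *Grhl3*-null libraries. Its median, in percent of the UMIs of a member cell, was 16.6% in WT 1, 19.9% in WT 2, 12.2% in *Grhl3*-null 1 and 12.7% in *Grhl3*-null 2, with no overlap between the groups' medians and wide overlap between cells (exact permutation p = 0.333, the smallest allowed with n = 2). UMIs outside globins went the other way, with medians of 32768.5 and 29954.5 in the WT libraries and 39612.5 and 36786 in the *Grhl3*-null libraries, while haemoglobin UMIs per cell were 6654 and 6992 against 5661 and 5761.5. The difference was larger in female cells, with medians of 18.95% and 21.2% in WT against 13.2% and 11.6% in *Grhl3*-null libraries, than in male cells, with 14.2% and 13.9% against 10.2% and 12.8%; the difference between the sexes in this share was not tested. In these pooled libraries a lower level of globin transcripts per cell and a larger part of less mature cells cannot be told apart.

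**Figure D4:**
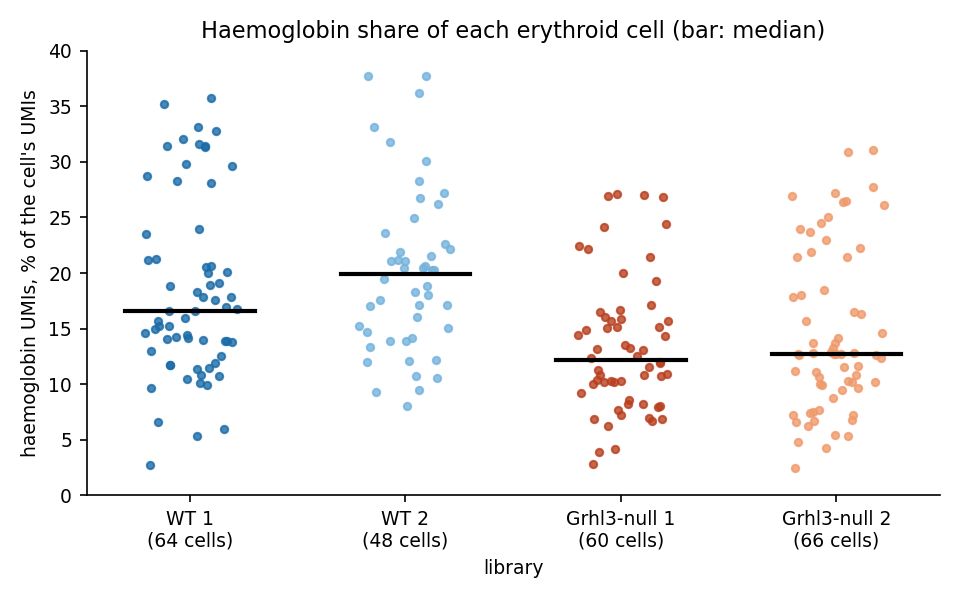
Haemoglobin UMIs as a percentage of all UMIs of the cell (y axis) for each erythroid cell by library (x axis), with the median as a bar. The medians are 16.6% and 19.9% in the WT libraries and 12.2% and 12.7% in the *Grhl3*-null libraries, and the cells of all 4 libraries overlap.

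Few genes differed between *Grhl3*-null and WT erythroid cells. UMIs were summed over the member cells of each library and compared in edgeR (quasi-likelihood test, Benjamini-Hochberg adjusted p), which called 3 of 8531 tested genes higher (0.0352%) and 4 lower (0.0469%) in the *Grhl3*-null libraries at an adjusted p under 0.05, while 565 genes had an unadjusted p under 0.05. The median log2 fold change over all tested genes was 0.0031. These p-values compare 2 pools through technical repeats, and the count of calls rested on the libraries used: without WT 1 it was 260, without WT 2 it was 123, and without either *Grhl3*-null library it was 1 or 2. With the 5% of cells of highest doublet score removed it was 119, and all 7 genes remained among them. DESeq2's Wald test kept 5 of the 7 calls, and cells thinned to a common depth kept 4.

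*Hbb-y* fell. Its level was 52089 CPM in WT 1 and 62215 in WT 2, against 31383 in *Grhl3*-null 1 and 33118 in *Grhl3*-null 2, so that the groups did not overlap. The log2 fold change was -0.91 ± 0.10 (SE, edgeR quasi-likelihood test, adjusted p = 0.00431, n = 2 against 2). Its share of the beta-like globin UMIs was 62.6% and 63.8% in the WT libraries against 52.7% and 53.8% in the *Grhl3*-null libraries (exact permutation p = 0.333). The adult genes *Hbb-bs* and *Hbb-bt* together made up 1.49% and 1.51% of beta-like UMIs in the WT libraries against 2.11% and 2.14%, and beta-like genes 48.5% and 49.3% of all haemoglobin UMIs against 44.9% and 44.4% (exact permutation p = 0.333 for each). On the alpha-like side the groups overlapped, with *Hba-a1* and *Hba-a2* at 22.1% and 21.3% against 21.5% and 20.8% of alpha-like UMIs (exact permutation p = 0.667).

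The other globins had values in the same direction that did not pass this test, though some passed under other settings. *Hba-x* was at 68830 and 78911 CPM in the WT libraries against 57263 and 61133 CPM, a log2 fold change of -0.40 ± 0.10. *Hba-a2* was at 6048 and 6892 against 4473 and 4793 CPM, with -0.56 ± 0.09 and an edgeR adjusted p of 0.0531, and *Hbb-bh1* at 29885 and 33858 against 26861 and 27122 CPM, with -0.32 ± 0.09. Without WT 2 the log2 fold changes were smaller, -0.25 for *Hba-x* and -0.18 for *Hbb-bh1*, and without WT 1 they were larger, -0.56 and -0.47. All 8 globins tested had a negative log2 fold change, their median was -0.40, and 1 of the 8 was called lower. With likely doublets removed edgeR called 5 of the 8 lower (*Hbb-y*, *Hbb-bh1*, *Hba-x*, *Hba-a1* and *Hba-a2*), where 63 of 7812 genes (0.806%) were called lower in all. DESeq2's Wald test called *Hba-a2* (adjusted p = 1.47e-07), *Hba-a1* (4.15e-05) and *Hbb-bh1* (0.0196) lower as well. Because the rule selected cells on *Hbb-bh1* (at least 20 UMIs), its values and calls, here and below, are given as a description.

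For 6 of the 8 globins tested the genotype difference was called in female cells and not in male cells. In WT 1, WT 2, *Grhl3*-null 1 and *Grhl3*-null 2 the sums held 37, 27, 35 and 33 female but 16, 16, 23 and 24 male cells. *Hbb-bs* had similar values in both sexes, -0.34 in male and -0.23 in female cells, as had *Hbq1b*, with -0.35 and -0.38. Among female members *Hbb-y* was at 67357 and 78907 CPM in the WT libraries and at 30670 and 24733 CPM in the *Grhl3*-null libraries, a log2 fold change of -1.60 ± 0.09 (edgeR adjusted p = 7.46e-12). Among male members it was at 36798 and 38655 CPM against 32510 and 39263 CPM, where the groups overlapped, with -0.058 ± 0.074 (adjusted p = 0.843). The sex by genotype term, a test added after these values were seen, called 54 of 7055 genes (0.765%), and *Hbb-y* had a term of -1.52 ± 0.13 on the log2 scale (adjusted p = 1.74e-08). With edgeR's robust fit, which lets single genes keep a large spread of their own, *Hbb-y* lost this call (adjusted p = 0.434) while *Hba-a2* kept it, with a term of -1.45 ± 0.10 (adjusted p = 9.54e-10, and 2.80e-13 in the robust fit). *Hba-a2* was at 8008 and 8629 CPM in female WT members and 4211 and 3900 CPM in female *Grhl3*-null members, and at 4208 and 4368 against 4829 and 5180 CPM in males. For *Hba-a2* the female WT values were the highest, and the other 3 combinations of sex and genotype lay between 3900 and 5180 CPM.

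**Figure D5:**
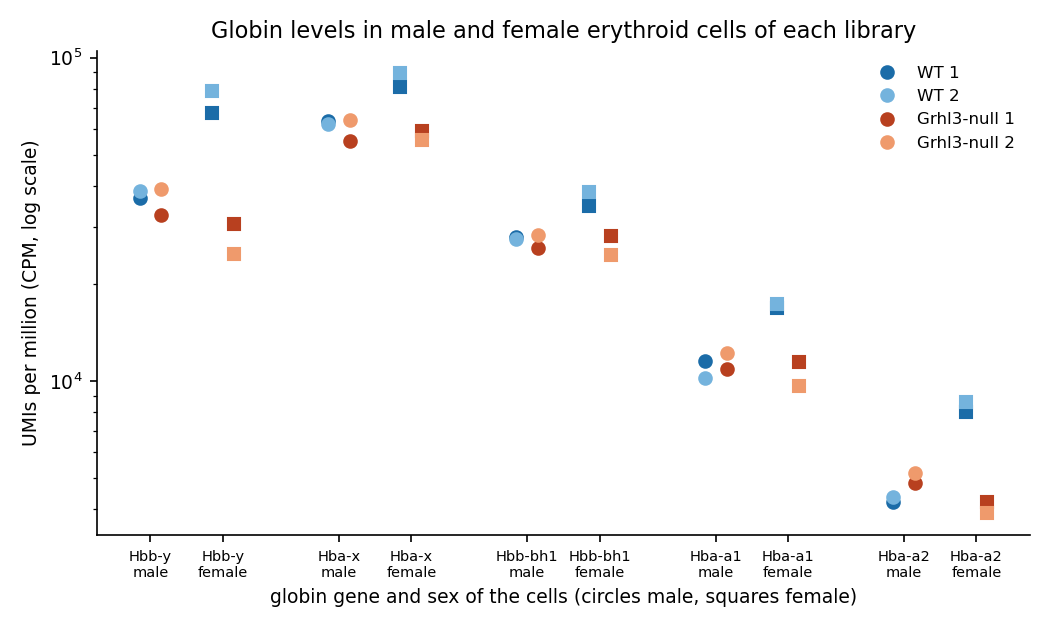
Level of 5 globins in counts-per-million (y axis, logarithmic) in male (circles) and female (squares) erythroid cells of each library. For all 5 genes the 2 female WT points are the highest of the 8, and for *Hbb-y* the male points of both genotypes overlap between 32510 and 39263 CPM.

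Other red cell genes were also lower in female *Grhl3*-null cells. In female cells 8 of 13 tested haem synthesis genes (among them *Alas2*, *Urod*, *Cpox*, *Ppox*, *Fech*, *Tmem14c* and *Hebp1*), 7 of 21 membrane genes and 6 of 8 globins were called lower in the *Grhl3*-null libraries by edgeR, where 87 of 7147 genes (1.22%) were called lower and 36 (0.504%) higher in all. In male cells 0 of 13, 0 of 21 and 0 of 8 were called lower, where 5 of 6184 genes (0.0809%) were called lower in all and 633 had an unadjusted p under 0.05, and *Cd24a* was 1 of 34 genes (0.55%) called higher. The median log2 fold changes of the haem synthesis, membrane and globin lists were -0.43, -0.30 and -0.83 in female cells. In male cells they were -0.047, -0.11 and -0.039. Over both sexes the haem synthesis list had 0 of 14 genes called, 13 of 14 negative log2 fold changes and a median of -0.26, beside 0.0031 over all tested genes. *Alas2* had a sex by genotype term of -0.66 ± 0.15 (edgeR adjusted p = 0.0320), and *Bpgm*, which makes the 2,3-bisphosphoglycerate that sets the oxygen affinity of haemoglobin, had one of -1.23 ± 0.23 (adjusted p = 0.00582, and 0.345 in the robust fit). Early response genes, a sign of handling during dissociation, also had calls. In female cells 5 of 8 tested (*Fos*, *Fosb*, *Jun*, *Jund* and *Ier2*) were called lower in the *Grhl3*-null libraries, and *Fos* over both sexes was at 17.8 and 20.9 CPM against 6.46 and 9.06 CPM. In male cells 0 of 5 were lower and *Egr1* was called higher, with a median log2 fold change of 0.92 over the 5 against -0.98 over the 8 in female cells; their part in the result was not tested.

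*Rhd*, which encodes the Rh blood group D antigen of the red cell membrane, also fell. It was at 48.5 CPM in WT 1 and 50.3 in WT 2, against 25.8 in *Grhl3*-null 1 and 24.9 in *Grhl3*-null 2, with no overlap and a log2 fold change of -1.03 ± 0.15 (edgeR quasi-likelihood test, adjusted p = 0.0264). *Rhd* was the called member of the 21 membrane and skeleton genes tested, whose median log2 fold change was -0.17. The call for *Rhd* was lost with DESeq2's Wald test (adjusted p = 0.0998) and in thinned cells (edgeR adjusted p = 0.541), where the log2 fold changes were -1.05 and -0.997. The direction was the same in male cells (-0.90 ± 0.26, adjusted p = 0.168) and in female cells (-1.43 ± 0.21, adjusted p = 0.000196). *Rhd* lies at chr4:134864536-134896172 (mm10), 0.646 Mb from *Grhl3* at chr4:135541888-135573630.

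*Stmn1* (stathmin, which destabilises microtubules) fell as well, and UMIs assigned to *Hdac1* (a histone deacetylase) were lower, and both genes lie on the same chromosome, 1.07 and 5.999 Mb from *Grhl3*. *Stmn1* was at 415 and 389 CPM in the WT libraries against 108 and 159 CPM, with a log2 fold change of -1.67 ± 0.13 (edgeR adjusted p = 0.000197). *Gm11223*, a copy 97.6% identical to *Stmn1* over 460 bases, was not among the genes counted, so their sum could not be given. *Hdac1* was at 83.7 and 86.7 against 47.9 and 44.0 CPM, with -0.96 ± 0.13 (adjusted p = 0.0138), but the pseudogene *Gm10093*, whose transcript is near-identical, was higher. *Hdac1* and *Gm10093* together were at 85.1 and 87.8 CPM in the WT libraries against 80.9 and 69.2 CPM, a log2 ratio of -0.20 (exact permutation p = 0.333, the smallest allowed with n = 2), so the value for *Hdac1* alone is uncertain. In the other filtered cells the values were similar, with a log2 fold change for *Stmn1* of -1.58 ± 0.06 and for *Hdac1* of -1.23 ± 0.02. Thus 3 of the 7 called genes lay within 10 Mb of the targeted gene, where 142 of the 8531 tested genes lay, and 1 of the 3 is *Hdac1* with its uncertain value. Chromosome 4 alleles linked to the *Grhl3* mutation and the loss of Grhl3 itself cannot be told apart in this design.

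Of the 3 genes that rose, 2 were processed pseudogenes. *Gm10093* was at 1.37 and 1.07 CPM in the WT libraries against 33.0 and 25.2 CPM in the *Grhl3*-null libraries (log2 fold change 4.42 ± 0.36, edgeR adjusted p = 0.000197). Its transcript is 99.4% identical to that of *Hdac1*. In thinned cells the log2 fold change of *Gm10093* was 3.36 ± 0.80, and it was not called (edgeR adjusted p = 0.134). *Gm10036* was at 10.9 and 6.96 against 326 and 297 CPM (4.98 ± 0.15), and its transcript is 99.3% identical to that of *Rpl11*, a ribosomal protein gene 0.455 Mb from *Grhl3* that was at 3327 and 3182 against 2888 and 2858 CPM. *Rpl11* and *Gm10036* together were at 3338 and 3189 against 3213 and 3154 CPM, a log2 ratio of -0.036. Reads of such near-identical transcripts can be assigned to either gene, so these values are uncertain. In the other filtered cells the log2 fold change was 5.60 ± 0.07 for *Gm10093* and 6.11 ± 0.08 for *Gm10036*.

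*Mt1*, a metallothionein that binds zinc and copper, rose from 34.2 and 40.7 CPM in the WT libraries to 75.1 and 87.3 CPM in the *Grhl3*-null libraries, a log2 fold change of 1.06 ± 0.15 (edgeR quasi-likelihood test, adjusted p = 0.0230). The other cells held 5.23 and 4.95 against 6.56 and 5.94 CPM, a smaller change of 0.27 ± 0.06, and the class by genotype term was 0.80 ± 0.21 (adjusted p = 0.0300). Male members gave 1.87 ± 0.40 (adjusted p = 0.0450), led by *Grhl3*-null 2 at 179 CPM, and female members 0.079 ± 0.256 (adjusted p = 0.950), with *Grhl3*-null 2 at 32.3 CPM, below both female WT values, but the sex by genotype term of -1.77 ± 0.54 was not called (edgeR adjusted p = 0.182, and 0.836 in the robust fit). In thinned cells the log2 fold change of *Mt1* was as large, at 1.08 ± 0.31, but not called (edgeR adjusted p = 0.323).

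Genes of other programmes had few or no calls in the test over all members. Of 15 erythroid transcription factors tested, 0 were called by edgeR over both sexes, 0 in male and 0 in female cells; *Gata1* was at 80.3 and 82.9 CPM in the WT libraries against 97.9 and 94.8 CPM (log2 fold change 0.17 ± 0.11), and *Klf1* at 214 and 229 against 211 and 205 CPM (-0.16 ± 0.09), values that the rule conditioned on, since a member needed a UMI of both, and that are given as a description. The robust fit called 19 genes in all over both sexes, and 2 of the 15 transcription factors had an unadjusted p under 0.05 in the default fit. S phase, G2 and M phase and glycolysis genes had 0 calls among 16, 16 and 14 tested, with 1, 2 and 5 unadjusted p-values under 0.05 and medians of 0.021, -0.051 and 0.15. Iron handling (14 tested), globin chaperone and redox (12), erythropoietin and Kit signalling (12), cyclins and Cdk inhibitors (14) and imprinted genes (10) had 0 calls over both sexes, with 5, 5, 1, 2 and 1 unadjusted p-values under 0.05 and medians of -0.18, -0.15, -0.032, -0.13 and -0.013. With likely doublets removed, where edgeR called 56 of 7812 genes higher (0.717%) and 63 lower (0.806%), there were calls in several of these lists, 3 of 13 iron handling genes lower (*Tfrc*, *Slc25a37* and *Glrx5*), 4 of 12 chaperone and redox genes lower (*Prdx2*, *Blvrb*, *Car2* and *Bpgm*), *Ccnd3* lower, 3 imprinted genes higher (*Peg3*, *Meg3* and *Mest*), and 3 glycolysis genes higher (*Pgk1*, *Eno1* and *Slc16a1*) with *Pklr* lower. At that setting edgeR also called 6 of 13 haem synthesis genes and 6 of 21 membrane genes lower and *Cd24a* higher, as well as the epithelial keratins *Krt8* and *Krt18* higher and the early response genes *Fos* and *Fosb* lower, whose part in these calls was not tested. By sex, the same 3 of 13 iron handling and 4 of 11 chaperone and redox genes were called lower in female cells. In male cells, which were fewer, 0 of 12 and 0 of 11 were called lower. The median log2 fold change of the iron handling genes was -0.24 in female and -0.24 in male cells. That of the chaperone and redox genes was -0.29 in female and -0.12 in male cells. A call in 1 sex only is therefore not by itself a difference between the sexes. Over all tested genes 1.22% were called lower and 0.504% higher in female cells, against 0.0809% and 0.55% in male cells. *H19* was lower and *Slc16a1* higher with *Pklr* lower in female cells, and *Ccnd1*, *Ccnd2*, *Meg3* and *Pgk1* were higher in male cells. The study's own erythroid marker table, 15 genes that the study chose on these samples and that are therefore not independent evidence of a direction, had 0 calls and a median of -0.25, and 7 of 15 lower with likely doublets removed, beside 0.806% of all genes at that setting.

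The genotype difference in erythroid cells was also set against that in the other cells of the same libraries. The class by genotype term called 70 of 16183 genes (0.433%) against all other filtered cells and 0 of 11202 (0%) against the 544 endothelial cells, where 355 genes had an unadjusted p under 0.05. In the fit against the other cells the estimated prior degrees of freedom were infinite, so single genes kept no spread of their own. With the robust fit 46 of the 70 remained called, and none of the 6 globins did. The globin terms turned direction with the choice of cells. *Hbb-y* had a term of 1.73 against all other cells, and -0.33 after the 10 *Hbb-bh1*-rich cells without *Gata1* were taken out of them. With those cells out the default fit called 66 genes, 6 globins among them, so globins were called whichever way the terms pointed. Among the genes that held their call under the default and the robust fit, *Tal1* was level in erythroid cells (-0.016 ± 0.113) and higher in the other *Grhl3*-null cells (0.77 ± 0.06), a term of -0.77 ± 0.12 (edgeR adjusted p = 7.52e-08). The other cells were a mix that differed between the pools. Endothelial cells were 130 of 5459 and 129 of 5116 filtered cells in the WT libraries, and 153 of 4842 and 132 of 4781 in the *Grhl3*-null libraries. The endothelial genes *Kdr* (-2.36), *Cldn5* (-3.83) and *Fli1* (-2.44) also had negative terms in the default fit, while *T* had a positive one (1.23). Of the 70 called genes 15 were under 10 CPM in members, and the part of this mix was not tested. Of 14 glycolysis genes tested 4 were called, all relatively higher in *Grhl3*-null erythroid cells, with terms of 0.39 ± 0.09 for *Eno1*, 0.36 ± 0.08 for *Pgk1*, 0.33 ± 0.07 for *Pkm* and 0.27 ± 0.07 for *Ldha*. Of 14 iron handling genes 2 were called, both relatively lower, with terms of -0.48 ± 0.12 for *Tfrc* and -0.49 ± 0.10 for *Slc25a37*.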

How the data were processed

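Single cells of 4 libraries (2 reactions each on a WT and a *Grhl3*-null pool) were measured with a 3′ droplet assay. The authors deposited UMI counts per gene and cell, with Cell Ranger 3.0.0 and mm10 named in the submitters' processing notes, and made no further normalization of these files. The libraries held 230556666, 224056649, 232903564 and 217559026 UMIs, and the member cells 2927462, 1868682, 2942222 and 3091120. Members and gene lists were chosen with earlier results of these data known.

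UMIs of the member cells were summed per library and tested with edgeR 4.0.16 (quasi-likelihood test, TMM scaling, filterByExpr, Benjamini-Hochberg adjustment, called at an adjusted p under 0.05). The same tool gave the class by genotype and sex by genotype terms, with the library as a block. The exact permutation tests and Clopper-Pearson intervals came from scipy 1.17.1. The standard error was taken as the size of the log2 fold change over the square root of F. CPM were computed on the summed UMIs, and a floor is 3 counts of that sum. Endothelial cells had at least 2 *Kdr* and 1 *Cdh5* UMIs. Cells with at least 2 Y-linked and at most 2 *Xist* UMIs were called male, and those with at least 3 *Xist* and at most 1 Y-linked UMI female.

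Named genes were up to 10 called genes in each direction of the genotype test (mean of at least 10 CPM), the 20 with the highest member to other-cell ratio (at least 50 CPM in members), the 10 highest and 10 lowest rank correlations with haemoglobin share, and the members of the lists. Some of these genes are not reported here. Near copies were found with blastn 2.17.0 (at least 95% identity over 80% of the shorter transcript). Doublets were scored with Scrublet in scanpy 1.11.5, whose own limit marked 0, 2, 2 and 3 cells, under 0.5% of each library, so the 5% of cells of highest score were removed in an alternative, 8, 1, 8 and 7 of them members. On simulated counts, 200 of 200 genes changed by 1.5 on the log2 scale were recovered with 11 wrong calls among 8437 genes in the genotype test. The simulation gave every gene the same small spread between libraries and changed only genes above a set level. It shows that the code recovers such changes, and it does not measure power or wrong calls in these libraries. Alternatives were DESeq2 1.42.0, no filter on low counts, other member rules, single sexes, the replicate block and leaving out each library. The robust fit, thinning to 7500 UMIs per cell, the crossed block, the sex by genotype term, the sums of near-identical copies and the removal of *Hbb-bh1*-rich other cells were added after the data were seen.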

Additional observations from a re-analysis of the deposited data

Results flagged for a closer look

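The share of erythroid cells moved in opposite directions in the sexes. The log2 ratio of *Grhl3*-null over WT was -0.34 in male cells and 1.03 in female cells, every library of a sex moved with its group, and the difference between the sexes was not tested.

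The genotype difference of several genes was not the same in erythroid cells as in the other cells of the same libraries, by the class by genotype term of edgeR's quasi-likelihood test. Relative to the other cells it was higher for the globins *Hbb-y* (1.73), *Hba-x* (1.35), *Hba-a1* (1.33), *Hba-a2* (0.97), *Hbb-bh1* (0.74) and *Hbb-bs* (0.72), all on the log2 scale. These 6 terms turned to -0.33, -0.42, -0.35, -0.51, -0.64 and -0.89 once the 10 *Hbb-bh1*-rich cells without *Gata1* were taken out of the other cells. That fit called 66 genes, 6 globins among them. *Hbb-bh1* was used by the rule that set members apart from the other cells, so its value is given as a description. The term was also positive for *Mt1* (0.80) and for the glycolytic genes *Eno1* (0.39), *Pgk1* (0.36), *Pkm* (0.33) and *Ldha* (0.27). It was negative for *Gm10036* (-1.09), a pseudogene with near-identical copies, for the regulator *Tal1* (-0.77), and for the iron genes *Slc25a37* (-0.49) and *Tfrc* (-0.48). Negative terms were also found for the endothelial genes *Kdr* (-2.36), *Cldn5* (-3.83) and *Fli1* (-2.44). Of the 70 called genes 15 were under 10 CPM in members. The mix of other cells differed between the pools, and its part in these terms was not tested.

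The genotype difference also differed between the sexes within the erythroid cells. The sex by genotype term, female minus male on the log2 scale, was -2.24 for *Hbb-bt*, -1.52 for *Hbb-y*, -1.45 for *Hba-a2*, -0.98 for *Hba-a1*, -0.68 for *Hba-x* and -0.63 for *Hbb-bh1*. Outside the globins it was -1.23 for *Bpgm*, -0.66 for *Alas2* and -0.52 for *Mgst3*. With the robust fit the calls for *Hbb-bt*, *Hba-a2*, *Hba-x*, *Alas2* and *Mgst3* remained, and those for *Hbb-y*, *Hba-a1*, *Hbb-bh1* and *Bpgm* did not. The value for *Hbb-bh1*, which the member rule used, is given as a description. The sexes are different embryos, so sex and embryo cannot be told apart.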

How the results depend on the processing

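With 48 to 66 cells and 2 reactions per pool, the number of calls depended on the setting. Beside 3 genes higher and 4 lower, DESeq2's Wald test called 7 and 9, no filter on low counts 45 and 36, removal of likely doublets 56 and 63, cells with few endothelial UMIs 6 and 9, male cells 34 and 5, female cells 36 and 87, and the robust fit 9 and 10. Thinned cells gave 7 genes lower, and a log2 fold limit of 1 gave 2 lower. With the replicate block 5 were higher and 6 lower, *Hba-a2* among them (adjusted p = 0.0243). The replicate numbers share only a label (correlation of deviations -0.205), and the crossed pairing called 5 higher and 4 lower. Leaving out 1 library gave 1 to 146 higher and 0 to 114 lower, the highest without WT 1, and 12 to 66 genes for the class by genotype term against other cells (70 with all libraries). Against endothelial cells that term gave 0 to 38 calls, and 14 with no filter. The cause was not tested.

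The log2 ratio of the erythroid share was -0.34 in male and 1.03 in female cells against 0.31 in all, 0.11 with a mitochondrial limit of 5%, and 0.16 without WT 2 to 0.48 without WT 1. Of 370 values for 20 genes, 363 kept their direction. The exceptions were in male cells *Hba-a1* (0.096), *Hba-a2* (0.24), *Hbb-bt* (0.94) and *Gata1* (-0.020), in thinned cells *Gata1* (-0.16), and under the stricter member rule *Hbb-bs* (0.13), which ranged from -0.39 to 0.24 without 1 library. Genes under about 1 CPM in members could not be compared at this depth.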
